A study of Mus musculus with 6 samples.

Results

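The genes described here are the 73 genes of the mouse annotation whose symbol is Gpr, a number and at most 1 further letter. They were chosen by symbol alone, out of 24391 genes in the count tables, and no measured value enters that rule. The family itself was proposed with earlier results of the same contrast in view, so its counts of changed genes are given as a description, and nothing is drawn from them about the family. Read counts came from 6 RNA sequencing libraries of mRPMaxKO, a mouse line grown from a lung tumour with the genotype RPMax-/- on a mixed 129/SvJ and C57BL/6 background. All libraries came from a polyclonal population that had taken up a lentiviral vector inducible by doxycycline and had been selected with puromycin, and the treatment text, the same for every library, gives 4 days of doxycycline. RPMax-/- stands for tumours that lack Rb1, Trp53 and Max. The 3 libraries labelled control and the 3 labelled MAX restored therefore share the loss of Rb1, Trp53 and endogenous Max, the vector selection and the passage limit. Whether the control cells carried an empty vector, and whether they in fact received the drug, is not said. Whether the libraries of a group are separate cultures is not labelled, and the spread on which each p-value rests may therefore be technical.

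G protein-coupled receptors sit in the cell membrane, bind a ligand outside and switch on heterotrimeric G proteins inside, which then act on adenylyl cyclases, phospholipases and other effectors. The name Gpr was given to receptors found by sequence before a ligand was known, so many carry the tag "orphan" and are known mainly from brain, retina, endocrine islets or immune cells. Small cell lung cancer, which the parent mouse model resembles, is a neuroendocrine tumour whose cells share many genes with neurons and endocrine cells. MAX is the obligate partner of the MYC proteins and binds DNA at the E-box CACGTG.

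The label fits only part of the set. Of the 73 genes, 65 encode receptors or receptor-like proteins, and 8 encode membrane proteins that are not classical receptors. Those 8 are Gpr107 and Gpr108 of the Golgi, Gpr89 (the Golgi pH regulator), the lysosomal proteins Gpr137, Gpr137b, Gpr137c and Gpr155, and Gpr180. No adhesion receptor is in the set, because the annotation does not list them under their older Gpr names.

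Each library held between 10046899 and 11925909 counts. The restored gene was as labelled, with 620 to 691 counts of Max in the controls and 13369 to 15979 in the MAX restored libraries. Max, Rb1 and Trp53 all kept counts in the controls (means of 63.5, 322 and 12.5 CPM, where CPM is the count scaled to library depth). Counts summed over a whole gene do not show which exons they came from. Of 11 neuroendocrine markers, 10 were tested and Neurod1 was at 0 in all libraries. The sum of the 11 was 8871 to 9114 CPM in the controls and 8908 to 9221 CPM with MAX. The 5 neuroendocrine markers that rose and 2 that fell left that sum in a similar range. Summed over 10 markers, of which 2 were tested and none called, immune cell markers were 1.48 to 2.95 CPM in the controls and 2.69 to 3.71 CPM with MAX, the 5 of endothelium, none tested, 1.05 to 1.09 and 1.43 to 1.96 CPM, and the 7 of fibroblasts, with Pdgfrb alone tested and higher, 1.67 to 1.88 and 1.93 to 3.32 CPM. Pdgfrb passed the filter only through the MAX restored libraries, so nothing is read from its call. Its mean was 0.524 CPM in the controls and 1.86 CPM with MAX. Of the untested fibroblast markers, Col1a1, Col1a2 and Pdgfra had lower means with MAX, and Col3a1 and Dcn higher ones. Cd3e, Cdh5, Cldn5 and Lum were at 0 throughout, and the part of such cells in the results was not tested. Control 1 stood apart from the other controls, with a chi-square per degree of freedom of 8.91 and 10.2 against them, where all other pairs within a group lay between 1.24 and 1.5. The ribosomal precursor Rn45s made up 0.996% of its counts and 0.109% to 0.187% of the counts in each other library, and its part in the results was not tested beyond the counts given without control 1.

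Promoter sequence is shown for the members whose start region holds the MAX E-box and for members that rose at least 2-fold. RefSeq start regions (build GRCm38.p6, 250 bases before to 50 after a start) were found by symbol for 51 of the 73 genes, in 67 windows. CACGTG, which reads the same on both strands, was present in 2 of the 67 windows (2.99%), against 7.15% of all 32851 windows. The related CACGCG, searched on both strands, was present in 5 of 67 (7.46%), against 9.27% of all windows. The 2 motifs share their first 4 letters but cannot be the same hexamer. The members with CACGTG were Gpr146, which rose, and Gpr63, which did not pass the test. Of the 8 members that rose at least 2-fold, 4 had a start region in the table (Gpr142, Gpr153, Gpr12 and Gpr179), and neither motif was present in the windows shown for them. Gpr142, Gpr153 and Gpr12 have 2 windows each, of which only 1 is shown. Gpr146 and Gpr63 have 3 windows each, of which only the 1 that holds CACGTG is shown. Of the 17 members called higher, 10 had a start region, and CACGCG was present in 2 of their 15 windows. A match is only a match of letters, and its absence says nothing of binding elsewhere. These 6 regions were chosen for display after their values and motifs were seen. The sequences run 5′ to 3′ on the strand of the gene, over the 250 bases before the start, with motif letters in capitals. For Gpr146 the 5 following bases are added, since its CACGTG begins 1 base before the start. The regions are chr5:139380389-139380643 (plus strand), chr4:24973169-24973418 (plus), chr11:114798674-114798923 (plus), chr4:152273862-152274111 (plus), chr5:146585240-146585489 (minus) and chr11:97352357-97352606 (minus) of GRCm38.
Gpr146: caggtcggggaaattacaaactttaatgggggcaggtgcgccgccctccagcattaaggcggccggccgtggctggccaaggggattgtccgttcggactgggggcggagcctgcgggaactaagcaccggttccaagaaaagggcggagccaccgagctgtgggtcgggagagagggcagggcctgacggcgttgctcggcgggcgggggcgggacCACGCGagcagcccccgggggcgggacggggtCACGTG
Gpr63: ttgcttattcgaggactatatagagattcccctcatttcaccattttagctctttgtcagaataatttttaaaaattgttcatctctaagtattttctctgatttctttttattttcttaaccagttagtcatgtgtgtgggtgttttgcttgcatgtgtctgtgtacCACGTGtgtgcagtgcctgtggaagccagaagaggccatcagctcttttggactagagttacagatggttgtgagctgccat
Gpr142: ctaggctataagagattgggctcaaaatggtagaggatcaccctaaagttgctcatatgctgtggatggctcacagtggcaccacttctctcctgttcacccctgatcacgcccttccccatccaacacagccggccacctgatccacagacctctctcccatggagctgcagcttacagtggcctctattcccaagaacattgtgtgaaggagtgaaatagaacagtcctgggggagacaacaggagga
Gpr153: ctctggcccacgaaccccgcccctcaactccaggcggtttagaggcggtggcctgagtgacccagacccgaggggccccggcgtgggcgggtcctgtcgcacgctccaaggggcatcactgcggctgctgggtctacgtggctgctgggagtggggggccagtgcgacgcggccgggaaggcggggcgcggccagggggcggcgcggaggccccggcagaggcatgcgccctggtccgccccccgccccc
Gpr12: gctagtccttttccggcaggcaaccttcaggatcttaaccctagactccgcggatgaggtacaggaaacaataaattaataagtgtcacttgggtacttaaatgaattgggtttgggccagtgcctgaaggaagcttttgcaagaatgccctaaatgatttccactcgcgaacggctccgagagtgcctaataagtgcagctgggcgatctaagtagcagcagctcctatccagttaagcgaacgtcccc
Gpr179: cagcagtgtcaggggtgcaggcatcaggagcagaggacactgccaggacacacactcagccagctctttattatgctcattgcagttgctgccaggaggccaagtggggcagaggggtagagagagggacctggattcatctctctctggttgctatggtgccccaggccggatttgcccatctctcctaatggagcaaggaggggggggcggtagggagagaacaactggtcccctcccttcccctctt

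In the window shown for Gpr146 the E-box overlaps the annotated start of that window, and CACGCG lies 33 bases before that start. In the window shown for Gpr63 the E-box lies 82 bases before the start. The other windows of both genes lack CACGTG. GC content covers only the members with a start region. The median over windows was 59.7% for the 10 such members called higher and 57.7% for the 5 called lower. It was 64.0% for the 6 that did not pass and 53.5% for the 30 not tested, against 52.7% for all windows.

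Of the 73 genes, 29 had enough counts to be tested, where 51.9% of all annotated genes did. Of the 29, 17 were higher with MAX restored, 5 were lower and 7 did not pass an adjusted p of 0.05. The groups did not overlap for 21 of the 29, 18 with MAX above and 3 below, where they did not overlap for 67.1% of all tested genes (33.2% above and 33.8% below). Among all 12664 genes tested, 63.5% were called in either direction, 31.2% higher and 32.3% lower. The median log2 fold change was 0.35 over the 29 members and -0.00 over all tested genes. At a mean under 10 CPM, 10 of 14 tested members were higher and none was lower. The background at that level was 34.8% higher and 17.4% lower. At 10 CPM or more, 7 of 15 were higher and 5 lower, where the background was 30.2% higher and 36.2% lower. Gpr142, Gpr153, Gpr52 and Gpr75 passed the filter on low counts only through the MAX restored libraries, and Gpr182 only through the controls. A gene that passes through 1 group alone tends to be higher there, so the calls on these 4 and the share of low members called higher support nothing.

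The receptors and the other proteins of the set are given apart, with no test of a difference between them. Of the 21 tested receptor genes 15 rose, 1 fell (Gpr19) and 5 did not pass, with a median log2 fold change of 0.83. The 15 include Gpr142, Gpr153, Gpr52 and Gpr75, which passed the filter through the MAX restored libraries alone. Of the 8 genes outside the receptor classes, all of them tested, 2 rose, 4 fell and 2 did not pass, with a median of -0.11. Over all tested genes 31.2% were higher and 32.3% lower. Without control 1 these numbers of calls were the same (15, 1, 2 and 4). Without control 2, 14 receptors were higher and 0 lower, and outside the receptor classes 2 were higher and 2 lower. Without control 3 the 4 lower calls outside the receptor classes were 2, and without MAX restored 1 no receptor was lower and 1 other gene was higher. DESeq2 gave 14 and 0 for the receptors and 1 and 2 for the others. The kinds differ in expression level too. The lowest mean outside the receptor classes was 12.9 CPM, while the median over the tested receptors was 4.60 CPM. Among the 7 receptor genes at 10 CPM or more, 5 rose, 1 fell and 1 did not pass. Whether level has a part in these counts was not tested.

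**Figure D1:**
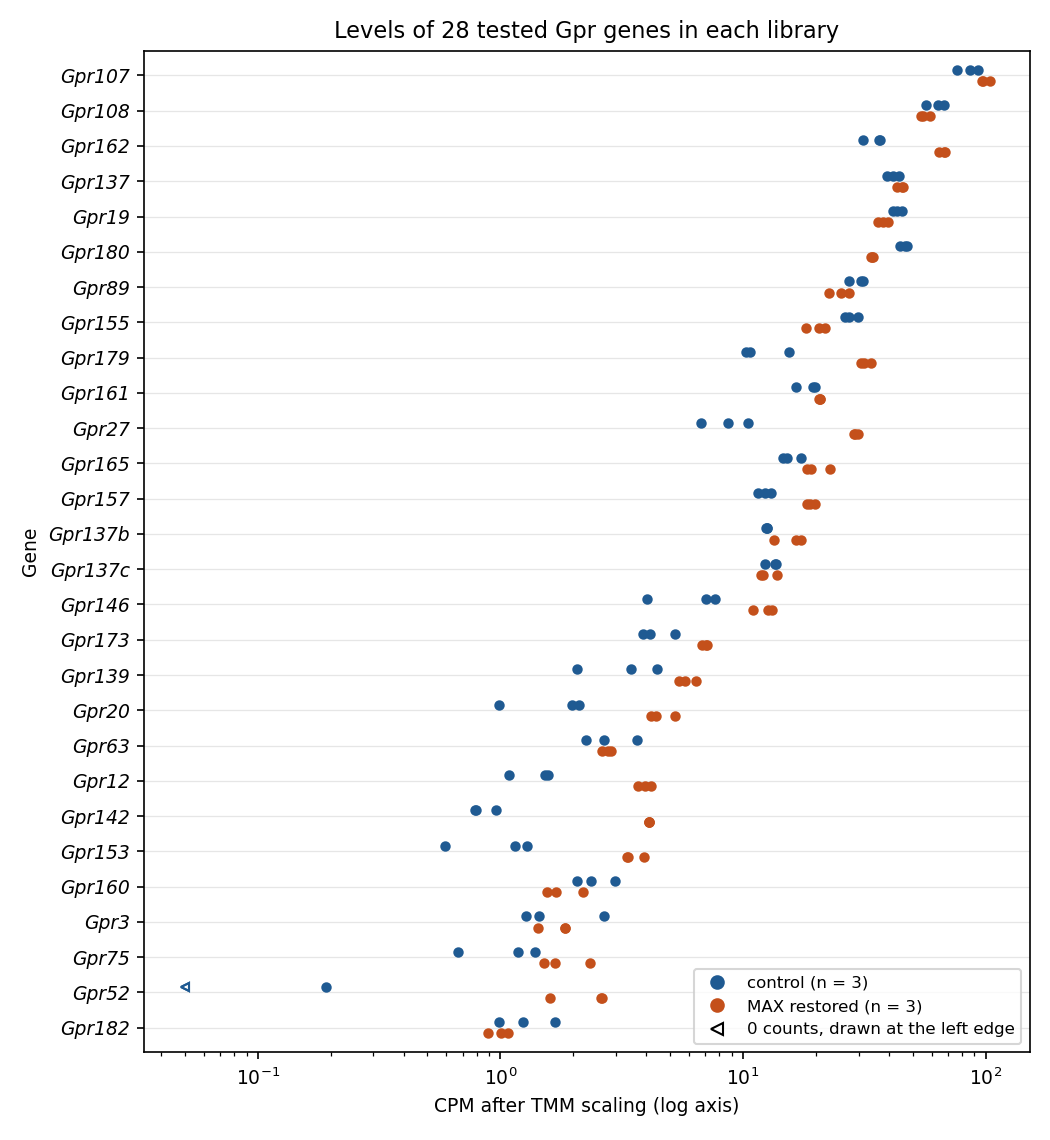
Expression of 28 of the 29 tested Gpr genes, 1 row a gene, with CPM on a log axis and 1 point a library (3 control in blue, 3 MAX restored in orange). The groups stand clear of each other for 20 of these 28 genes, 17 with MAX above and 3 with MAX below, where 67.1% of all tested genes do. The 2 control libraries of Gpr52 without a count are drawn as open triangles.

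At least 2-fold rises were found for 8 members, all of them receptors, and at least 2-fold falls for none. In the background 6.15% of tested genes rose and 2.38% fell by that much. Gpr52, Gpr142 and Gpr153, which are among the 8, passed the filter only through the libraries in which they are high, so nothing is read from this count. Of the 8, 7 are described first, ordered by receptor class, with CPM values for controls 1, 2 and 3 and then for MAX restored libraries 1, 2 and 3.

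Gpr27 belongs to the SREB group, receptors of the brain with an unusually conserved sequence. It is a gene of 1 exon on chromosome 6 of mm9, plus strand, from 99642673 to 99643812. Its level was 6.69, 10.5 and 8.71 CPM in the controls and 28.7, 29.8 and 29.1 CPM with MAX. All MAX restored libraries lay above all controls, and control 1 was the lowest. The log2 fold change was 1.75 (SE 0.11), a 3.37-fold rise, with an adjusted p of 7.26e-11. On the scale of FPKM, which divides by gene length and so allows genes to be compared, Gpr27 was 9th of the 73 in the controls at 7.58 ± 1.69 (SD, n = 3). With MAX it was first, at 25.6 ± 0.468 FPKM, level with Gpr107 at 25.3 ± 0.997, Gpr162 at 24.9 ± 0.719 and Gpr108 at 24.4 ± 1.14, which did not differ from it beyond their spread. Of the other SREB genes, Gpr173 rose by 0.66 on the log2 scale (SE 0.15), from 4.42 ± 0.747 to 6.99 ± 0.169 CPM. Gpr85 had 5 counts over all libraries and was not tested.

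Gpr12, Gpr3 and Gpr6 are closely related receptors that raise cyclic AMP through Gs without an added ligand. Gpr12 has 2 exons on the minus strand of chromosome 5, from 147393726 to 147396815 in mm9. It stood at 1.57, 1.53 and 1.09 CPM in the controls and 3.95, 4.19 and 3.71 CPM with MAX. The groups did not overlap, and the rise was 2.81-fold (log2 1.49, SE 0.22, adjusted p = 8.97e-06). Without control 1 the log2 fold change of Gpr12 was 1.58. Gpr3 stood at 1.80 ± 0.763 CPM in the controls and did not pass the test (1.71 ± 0.245 CPM with MAX, adjusted p = 0.852). Its log2 fold change was -0.07 with an SE of 0.30, so a change of moderate size was not detectable at this depth. Gpr6 had 2 counts in all.

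Both tested class C receptors rose. Class C receptors resemble the glutamate and GABA-B receptors, and these are orphans. Gpr179, which anchors the signalling complex of retinal bipolar cells, is spread over 11 exons on the minus strand of chromosome 11, from 97193423 to 97213387. It went from 10.7, 10.3 and 15.5 CPM to 31.7, 30.7 and 33.9 CPM. Control 3 was the highest control, still below every MAX restored library. The rise was 2.63-fold (log2 1.39, SE 0.11, adjusted p = 1.97e-09). Another class C gene, Gpr158, had 4 counts.

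A further 4 large rises were in class A, the receptor class with most members. Gpr52, a Gs-coupled orphan of the striatum, is a single exon on the minus strand of chromosome 1, from 162506799 to 162507884. It lies within Rabgap1l on the same strand. Its raw counts were 0, 2 and 0 in the controls and 31, 18 and 27 with MAX, so both control counts lay in control 2. The ratio of counts scaled to depth was 35.0, with an exact binomial 95% interval of 9.35 to 294 that covers counting error only. The fitted log2 fold change was 4.90 (SE 0.59, adjusted p = 5.76e-07). The fit without control 2 gave 7.62, a value set by the prior count because no control count is then present. Rabgap1l itself did not pass the test (89.4 and 91.7 CPM, log2 0.03).

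Gpr142, a receptor of pancreatic islets that responds to tryptophan, has 3 exons on the plus strand of chromosome 11, from 114660238 to 114668059. It stood at 0.787, 0.958 and 0.792 CPM in the controls and at 4.11, 4.10 and 4.10 CPM with MAX. The 3 MAX restored libraries were nearly equal, and all lay above the controls. The rise was 4.80-fold (log2 2.26, SE 0.24, adjusted p = 1.03e-07). Gpr153, an orphan, has 6 exons on the plus strand of chromosome 4, from 151648471 to 151659446. It went from 0.590, 1.15 and 1.29 CPM to 3.36, 3.92 and 3.32 CPM, a 3.47-fold rise (log2 1.80, SE 0.27, adjusted p = 7.1e-06). Control 1 was the lowest library, and without it the log2 fold change was 1.53. Gpr20, an orphan with 2 exons on the minus strand of chromosome 15 from 73525037 to 73537935, went from 0.984, 2.11 and 1.98 CPM to 4.20, 5.26 and 4.39 CPM. Control 1 was again the lowest, and the rise was 2.71-fold (log2 1.44, SE 0.24, adjusted p = 2.4e-05). Without control 1 the log2 fold change of Gpr20 was 1.17.

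Smaller rises were found in 7 further receptor genes, one of which, Gpr173, is given above. Gpr162, an orphan, was among the 5 members with the highest mean FPKM. It went from 31.2, 36.8 and 36.3 CPM to 64.4, 68.1 and 67.2 CPM, with no overlap (log2 0.94, SE 0.06, adjusted p = 1.29e-10). By FPKM it moved from the 7th to the third place. Gpr146, linked to cholesterol metabolism in liver, rose by 0.98 on the log2 scale (SE 0.16), and Gpr139, a brain receptor that responds to aromatic amino acids, by 0.83 (SE 0.20). Gpr139 stood at 2.07, 4.41 and 3.46 CPM in the controls, lowest in control 1. Its log2 fold change was 0.58 to 1.09 over the 12 other settings. Gpr157 rose by 0.62 (SE 0.10) and Gpr165 by 0.35 (SE 0.10). Gpr75 rose by 0.76 (SE 0.32, adjusted p = 0.0417) from 1.08 ± 0.368 to 1.85 ± 0.438 CPM. That call was lost under DESeq2 and without control 2, MAX restored 1 or MAX restored 3, with adjusted p up to 0.205.

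Gpr19 was the only receptor gene that fell. It is an orphan and was the third most abundant member by FPKM in the controls. Its level was 41.4, 45.1 and 43.0 CPM in the controls and 36.2, 39.7 and 37.9 CPM with MAX. The groups were separate, but by little: the log2 fold change was -0.19 (SE 0.06, adjusted p = 0.0135). The call was lost under DESeq2 and without control 2 or MAX restored 1 (adjusted p up to 0.0960). Besides Gpr3, the receptors that did not pass were Gpr161, which represses Hedgehog signalling in the primary cilium (log2 0.16), Gpr63 (-0.06), Gpr182, known from endothelium (-0.39), and Gpr160 (-0.44). Gpr161 had the highest FPKM of these and stood at 18.6 ± 1.80 and 20.7 ± 0.115 CPM (SD, n = 3), with an SE of 0.09 on the log2 scale.

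**Figure D2:**
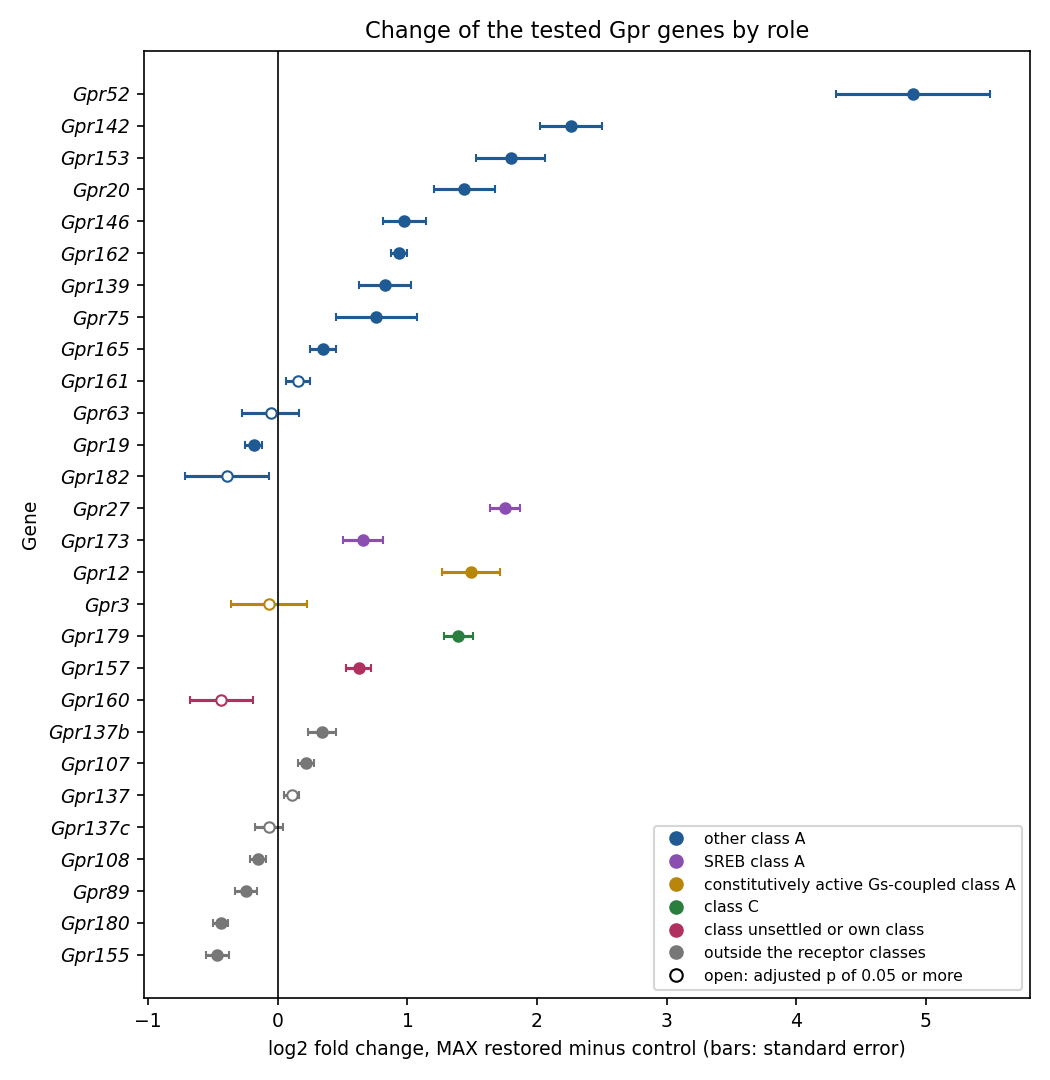
The log2 fold change (MAX restored minus control) of 28 tested Gpr genes, grouped and coloured by role, with bars of 1 standard error and open points for genes with an adjusted p of 0.05 or more. All points at 1 or above belong to receptor classes, and the genes outside them lie between -0.47 and 0.34.

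The genes outside the receptor classes changed little. Gpr107, in the second place by FPKM in both groups, stood at 76.5, 93.4 and 86.3 CPM in the controls and 96.3, 98.0 and 104 CPM with MAX. Control 1 was the lowest, and the groups were separate by a small margin (log2 0.22, SE 0.06, adjusted p = 0.00321). Without control 1 the log2 fold change of Gpr107 was 0.14. Gpr108, its relative, stood at 56.9, 63.4 and 67.7 CPM in the controls and 55.4, 59.2 and 54.1 CPM with MAX, where the groups overlap. Its fall of -0.16 on the log2 scale (SE 0.06, adjusted p = 0.0348) was not called in 7 of 12 other settings, among them each fit without control 2, control 3, MAX restored 1 or MAX restored 3 (adjusted p up to 0.203).

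The lysosomal members went both ways. Gpr155, which senses cholesterol at the lysosome, fell by 0.47 on the log2 scale (SE 0.09), from 27.8 ± 1.89 to 20.2 ± 1.80 CPM. Gpr137b rose by 0.34 (SE 0.11, adjusted p = 0.0102), from 12.5 ± 0.0367 to 15.8 ± 2.06 CPM. Without MAX restored 1, or with DESeq2, Gpr137b did not pass (adjusted p up to 0.0673), and it has a near-identical copy, Gpr137b-ps, with which it can share reads. Gpr137 (0.11) and Gpr137c (-0.07) did not pass, and 517 bases of Gpr137 exons overlap Bad, where reads of both genes cannot be told apart. Gpr180 fell by 0.44 (SE 0.06, adjusted p = 2.61e-06), from 46.1 ± 1.69 to 33.9 ± 0.325 CPM. Gpr89 fell by 0.25 (SE 0.08, adjusted p = 0.0158), and that call was lost under DESeq2 and without control 2, control 3 or MAX restored 2 (adjusted p up to 0.119). Gpr137 and Bad aside, no tested member shared exon bases with another gene.

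The genes beside a member moved with it in some places and against it in others. For each tested member the median log2 fold change was taken over the 25 tested genes on either side in mm9 order, without the member. Those medians lay between -0.16 and 0.11 for 26 of the 29. The exceptions were Gpr153 (0.39) and Gpr157 (0.42), both near the end of chromosome 4, and Gpr173 on chromosome X (-0.63), which rose by 0.66 within a region that was mostly lower. The log2 fold changes of Gpr157 and Gpr153 themselves were 0.62 and 1.80. Gpr157 starts at 149461612 and Gpr153 at 151648471, so their sets of neighbours can share genes. Their medians are therefore not taken as separate results. Next to Gpr142, at a distance of 3031 bases, Btbd17 had a log2 fold change of 2.24, near the 2.26 of Gpr142. Gprc5c, 44786 bases away on the other side, had 1.14. Next to Gpr162, 757 bases away, P3h3 had 0.86, near the 0.94 of Gpr162. The nearest gene of Gpr173, 3010001F23Rik at 460 bases, had 1.04, and Tspyl2, 2161 bases away on the other side, had -0.17. Other neighbours went the opposite way to the member. Beside Gpr179 (1.39), Mrpl45 at 2188 bases and Socs7 at 10477 bases both had -0.34, and 3110082I17Rik around Gpr146 (0.98) had -0.64. Gp2, 258169 bases from Gpr139 (0.83), had -1.31, while Gprc5b, nearer at 149111 bases, had 0.03. All named neighbours were picked with their values known. The counting ignored strand, and whether reads running past a neighbour's end enter these counts was not tested.

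**Figure D3:**
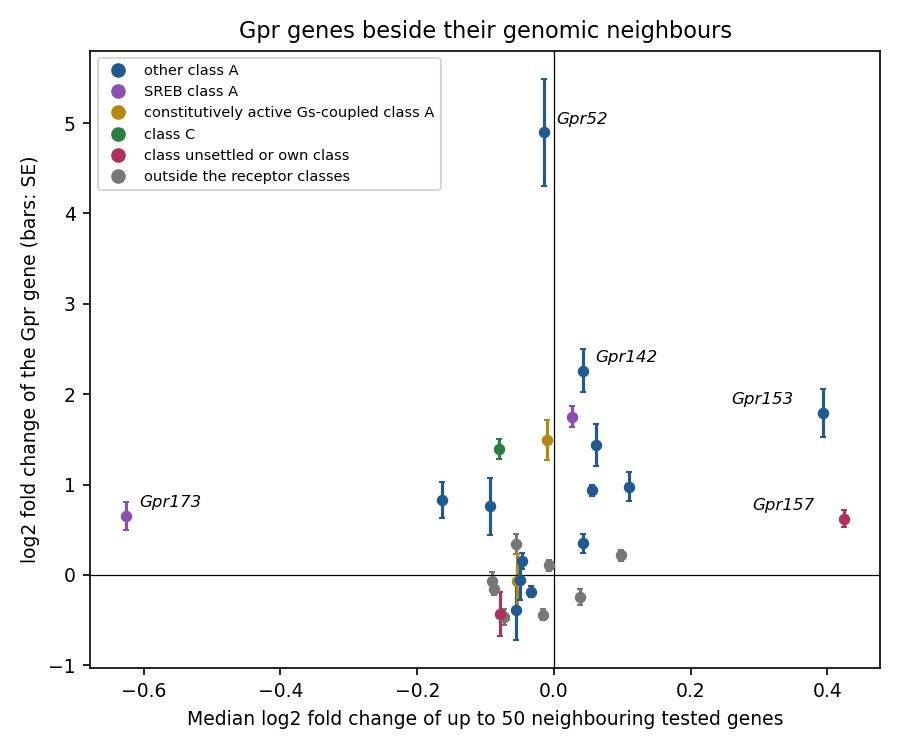
The log2 fold change of 28 tested Gpr genes (vertical axis, bars of 1 standard error) against the median log2 fold change of the 50 nearest tested genes, 25 on either side (49 for Gpr180). Most members sit near 0 on the horizontal axis, and Gpr153, Gpr157 and Gpr173 lie away from it.

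The remaining 44 members had too few counts to be tested, 10 with none in any library and 24 with 1 to 10 counts over all. Those with none included Gpr31b, Gpr33, Gpr39, Gpr45, Gpr65, Gpr101, Gpr141, Gpr143 and Gpr183. A total of 0 allows up to 0.0468 CPM over the 6 libraries (3 counts, counting error only). The proton-sensing receptors were all too low to test, and among them Gpr65 was at 0, Gpr132 had 1 count and Gpr4 had 43. Of receptors known from immune cells, picked here after their counts were seen, Gpr183 had 0 counts, Gpr84, Gpr171 and Gpr174 had 1 each, Gpr18 had 2 and Gpr34 had 10. Gpr15, which guides T cells to the gut, had 1, 2 and 1 counts in the controls and 6, 6 and 6 with MAX. The ratio to depth was 4.14 (95% interval 1.36 to 16.8). This interval and those that follow cover counting error only, not the spread between libraries, so they are no test of a change. Gpr4, Gpr135, Gpr62 and Gpr151 were among the 5 untested members with most counts. For Gpr4 the counts were 4, 5 and 3 in the controls and 14, 10 and 7 with MAX, a ratio to depth of 2.38 (95% interval 1.19 to 5.08). For Gpr62 they were 0, 5 and 3 against 12, 8 and 6 (2.99, 1.31 to 7.64), and 52 of its exon bases overlap Pcbp4. For Gpr135 they were 4, 1 and 5 against 6, 16 and 4 (2.39, 1.12 to 5.56). There MAX restored 2 holds 16 of the 36 counts and the groups overlap. For Gpr151 they were 4, 6 and 3 against 7, 5 and 7 (1.34, 0.63 to 2.96), with overlapping groups.

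All members together held 463 to 519 CPM in the controls and 593 to 608 CPM with MAX. The sum was lowest in control 1. In bulk RNA, fewer cells expressing a gene and less RNA per cell cannot be told apart, and this holds for every value given.

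Downstream of the receptors, G protein signalling genes were higher in 32 of 67 tested, lower in 17 and not past the threshold in 18, out of 89 in the annotation. Their median log2 fold change was 0.19, against -0.00 for all tested genes, and 31.2% and 32.3% of all tested genes were higher and lower. The list was written with earlier results of these data known.

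Within this list, the largest rises on the log2 scale were those of Pde4c (2.22), Pde4a (1.98) and Adcy1 (1.63). Plcb1 (1.53) and Rapgef4 (1.32) came next. Adenylyl cyclases make cyclic AMP, and 4 of 7 rose and none fell. Adcy1 went from 162 ± 4.67 to 502 ± 6.49 CPM (SD, n = 3, log2 1.63) and Adcy7 from 21.8 ± 0.957 to 51.4 ± 1.70 CPM (1.24). Phosphodiesterases, which degrade it, rose in 5 of 7 and fell in 1. Pde4a went from 8.87 ± 0.714 to 34.9 ± 0.663 CPM (1.98) and Pde4c, which passed the filter only through the MAX restored libraries, from 0.326 ± 0.151 to 1.56 ± 0.195 CPM (2.22), while Pde7a fell by 0.16, a call lost in 3 of 12 other settings (without control 1, MAX restored 2 or MAX restored 3). Of the cyclic AMP effectors 4 of 10 rose and 4 fell. The exchange factor Rapgef4 rose by 1.32 and the protein kinase A catalytic subunit Prkaca by 0.76, while the transcription factor Atf1 fell by 0.25. The regulatory subunits of protein kinase A went both ways: Prkar1a rose by 0.25 (709 ± 33.0 to 843 ± 11.2 CPM), Prkar2a fell by 0.42, and Prkar2b fell by 0.14, a call lost in 3 of 12 other settings, without MAX restored 1 or MAX restored 2 among them.

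Among the G proteins themselves, 5 of 12 alpha subunits rose, led by Gnaz (0.76) and Gnao1 (0.57), and 3 fell, led by Gnat2 (-1.45) and Gnai3 (-0.26). Of the beta subunits Gnb1 (0.44) and Gnb2 (0.13) rose, and of 7 gamma subunits 1 rose and 4 fell. One of the 4, Gng10 (-0.20, adjusted p = 0.0242, groups overlapping), lost its call under DESeq2 and without control 1, MAX restored 2 or MAX restored 3. Gng12 fell from 88.2 ± 6.48 to 22.9 ± 2.21 CPM (log2 -1.95) and Gng5 by 0.77, while Gng7 rose by 1.14. Phospholipase C beta genes, targets of Gq, rose in Plcb1 (1.53) and Plcb3 (0.50) and fell in Plcb4 (-0.19).

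Receptor kinases and arrestins, which switch receptors off, were higher in 2 of 7, Arrb1 (0.83) and Adrbk2 (0.38). Grk6 was called lower (-0.11, adjusted p = 0.0481), a call that 10 of 12 other settings did not make, with adjusted p up to 0.179. The exchange factors of the G12/13 branch rose in Arhgef11 (0.34) and Arhgef1 (0.17) and fell in Arhgef12 (-0.46). Of 8 tested modulators 5 rose, led by Gprin3 (0.80) and Ric8b (0.45), and Gpsm2 (-0.55) and Ric8 (-0.26) fell.

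**Figure D4:**
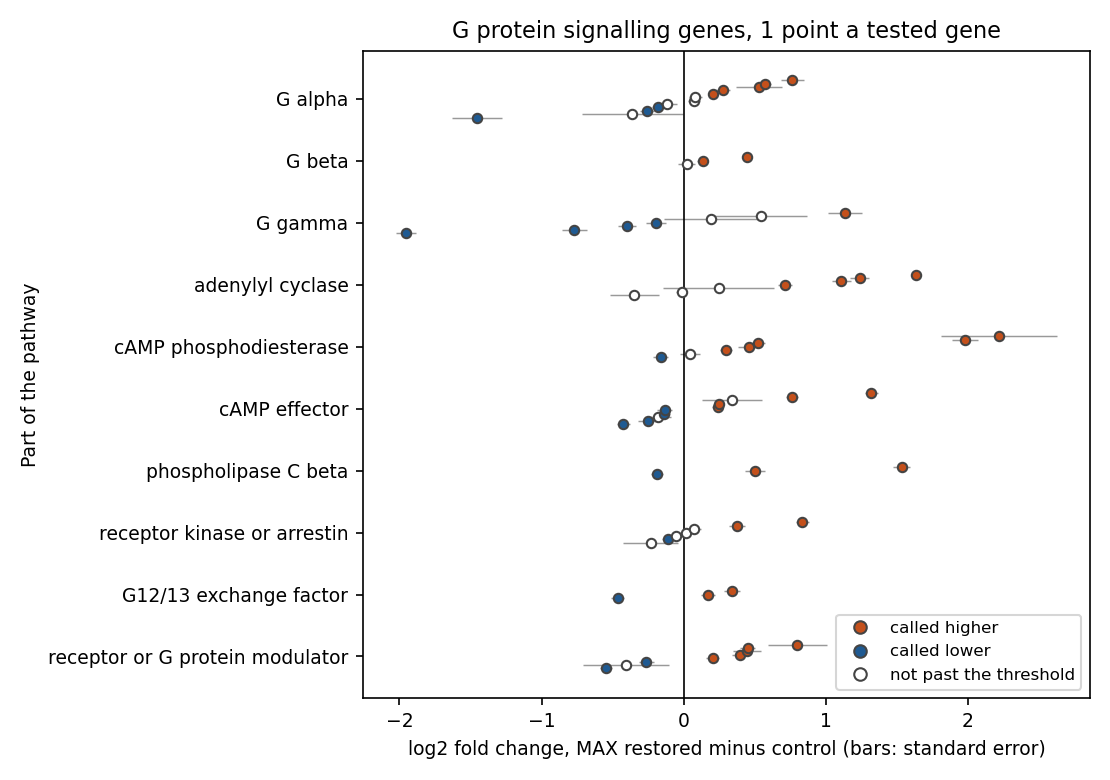
The log2 fold change (MAX restored minus control) of 67 tested G protein signalling genes, 1 point a gene, in rows by part of the pathway, with bars of 1 standard error and colour by call. The adenylyl cyclase row holds 4 genes called higher and none called lower, while the G gamma row holds 1 called higher and 4 called lower. One of these 4, Gng10, lost its call in 4 of 12 other settings. Over all tested genes 31.2% were called higher and 32.3% lower. These rows were picked with their values known.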

How the data were processed

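Each of the 6 libraries has 1 deposited table of unnormalised read counts by gene symbol. Per the file headers the authors made them with featureCounts 1.6.0 on the UCSC mm9 annotation, ignoring strand. The submitters' processing notes also name bcl2fastq 1.8.4 and STAR 2.5.2a. Groups came from the labels. The members and gene lists were chosen with earlier results of these data known. Genes were kept by filterByExpr of edgeR 4.0.16 (minimum count 10, equal to 0.967 CPM in 3 libraries), with TMM factors for depth. The quasi-likelihood F test of edgeR (R 4.3.3) compared the groups, two-sided and with no covariate. P-values were adjusted by Benjamini-Hochberg over all 12664 genes tested, with a threshold of 0.05. The SE of a log2 fold change is its size divided by the root of the F statistic. CPM and FPKM use TMM-scaled library sizes and the deposited gene lengths. The fit was checked on simulated data. Alternatives were 2 other scalings, 2 other filters, DESeq2 1.42.0, a threshold of 0.01, the replicate number as a block, and leaving out each library. Named in full were members changed at least 2-fold (adjusted p under 0.05), the 5 with highest mean FPKM, and the 5 untested members with most counts. In each part of the signalling list, up to 2 called genes a direction were named. Counts from untested members have exact binomial intervals. Protein sequences were not used here. Promoter windows are RefSeq's, build GRCm38.p6, and all gene coordinates are mm9. A few members to which these rules apply are not reported here.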

Additional observations from a re-analysis of the deposited data

How the results depend on the processing

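Members called higher numbered 15 to 22 over all alternatives (17 in the report), and all genes called 6661 to 8393 (8040 in the report). The signalling list gave 31 to 37 higher and 12 to 17 lower. The number of members called lower, 5, was 2 with DESeq2, 2 at a threshold of 0.01, and 2 to 5 when a library was left out (2 without control 2, 3 without control 3, 3 without MAX restored 1). By kind, in alternatives chosen after seeing the data, leaving out a library gave 14 to 15 receptors higher and 0 to 1 lower, and 1 to 2 other genes higher and 2 to 4 lower. DESeq2 gave 0 receptors lower, and 1 other gene higher and 2 lower. Of the 17 members called higher 15 kept the call in all 12 fits at the 0.05 threshold in which they could be tested, and Gpr75 and Gpr137b did not. Of the 5 called lower 2 did, Gpr155 and Gpr180. The 7 without a call had none in any of these fits. No called member changed direction. With the replicate number as a block, 17 members were higher, 5 lower, and 8034 genes were called in all. Same-numbered libraries of the groups did not deviate together (correlations of 0.004, 0.035 and -0.024), so the numbers are not taken as pairs. Depth limits the 44 untested members and the size of the rise of Gpr52.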
